A study of Mus musculus and Homo sapiens with 352 samples.

Results

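The region described is the mouse major histocompatibility complex (the H2 complex) with its flanks, on chromosome 17 from 33 to 37.5 Mb of mm9, a stretch of 4.5 Mb. Its members are every CTCF peak, loop anchor and loop of the deposited lists that overlaps these coordinates, so no measured value chose them. They are 217 of 39438 CTCF peaks of wild-type CH12 cells, 317 of 59978 CTCF peaks of a B cell list, 78 of 11534 wild-type loops with 85 of 13547 anchors, and 95 of 11820 mutant loops with 85 of 12476 anchors. All 78 wild-type loops and 93 of the 95 mutant loops had both anchors inside the region.

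The complex is a gene-dense block that carries the class I genes, whose products show peptides from inside the cell to cytotoxic T cells, the class II genes, through which B cells and other antigen-presenting cells show taken-up peptides to helper T cells, and between them the class III genes, among them those for complement proteins and tumour necrosis factor. CTCF binds a directional DNA motif through its zinc fingers and stalls the cohesin ring, which is thought to extrude chromatin into loops, so that many loops end at CTCF sites. B cells depend on class II genes for their exchange with helper T cells.

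The study measured chromatin contacts and protein binding in 352 samples of mouse and human cells, and 4 of its lists bear on this region. CH12 is a mouse B cell lymphoma line, and both interaction libraries came from it: 1 of genotype WT and 1 of genotype CTCFmZF9to11, a CTCF mutation that the label places at zinc fingers 9 to 11. They were made by ChIA-PET, which ligates and sequences pairs of DNA ends held together in chromatin pulled down with an antibody, here against CTCF. Each pair that supports a loop is called a tag below. The CH12 peak list belongs to wild-type cells, of which the labels list 3 CTCF ChIP-seq samples. The B cell list is named for resting and activated B cells. The labels hold 2 CTCF samples of wild-type splenic B cells activated for 24 h. They also hold CTCF samples of wild-type B cells activated for longer, labelled HU-treated or untreated, and none of resting B cells. The sources used here do not give the libraries behind that list or their mouse strain, nor whether the mutant line is 1 clone. CH12 cells arose in a mouse strain bred to carry an H2 haplotype other than that of the reference genome, and the part of such sequence differences in the values below was not tested. Both ChIA-PET libraries are CH12 and share that background.

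Each genotype had 1 ChIA-PET library, so no difference between the lists has a replicate check. The lists left out loops under 3 tags, and the tags listed, 74198 in the wild type and 82222 in the mutant over all chromosomes, are not the depth of the libraries. Intervals below are exact 95% intervals, except that of the span difference, and cover counting error only. The genes were ordered from RefSeq on the assembly GRCm38.p6 and are not placed among the mm9 positions. From the tapasin gene Tapbp, which serves peptide loading of class I molecules, and the class I gene H2-K1, the order runs through the class II genes H2-DMa, H2-DMb1, H2-Ab1, H2-Aa and H2-Eb1, with the peptide transporter genes Tap1 and Tap2 and the immunoproteasome genes Psmb8 and Psmb9 among them. It goes on through the class III genes Notch4, C4b, Cfb, C2, Ltb, Tnf and Lta to the class I genes H2-D1, the H2-Q and H2-T groups and, last, the H2-M group. In all, 24 of 27 listed class I genes and 9 of 10 listed class II genes could be ordered.

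CTCF sites were dense across the region. CH12 cells had 48.2 peaks per Mb here, against 19.9 on chromosome 17 and 15.3 over the genome. The B cell list had 70.4 per Mb, against 29.6 and 23.3. The median distance between neighbouring peaks was 11.0 kb in CH12 cells, against 19.3 kb over the genome, and 6.61 kb in the B cell list, against 12.4 kb. The excess was not made of weak sites only. Of the CH12 peaks, 124 scored at or above the median of their whole list, 27.6 per Mb here against 7.67 over the genome. Of the B cell peaks, 163 did so, 36.2 against 11.7. The median CH12 peak score was 470 here and 398 over the genome, and the median fold over background of B cell peaks was 6.50 and 6.44. Scores and folds are the authors' own values for each peak and are used within their own list.

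The sites were unevenly spread. In windows of 500 kb, CH12 peaks numbered 8 and 16 from 33 Mb, 47 from 34 Mb, 25 from 34.5 Mb, 42 from 35 Mb, 33 from 35.5 Mb, 24 from 36 Mb, and 9 and 13 in the last windows. A window of the genome held a median of 5 CH12 peaks, 20 at the 90th percentile and 54 at most. The 5 windows from 34 to 36.5 Mb were therefore all above the 90th percentile of the genome, and the windows on either side of them were all below it. B cell peaks numbered 64 from 34 Mb, 30 from 34.5 Mb, 61 from 35 Mb, 53 from 35.5 Mb and 46 from 36 Mb, where the genome's 90th percentile was 31 and its maximum 72. All of these core windows but that from 34.5 Mb were above the percentile. The longest stretches without a CH12 peak lay outside the dense core: 349 kb from 33.146 to 33.495 Mb and 307 kb from 36.556 to 36.863 Mb. The B cell list had no peak in 324 kb and 307 kb at the same places. No loop of either genotype crossed these 2 empty stretches. The next longest, 118 kb from 37.222 to 37.340 Mb in both lists, was crossed by 7 wild-type and 5 mutant loops.

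**Figure D1:**
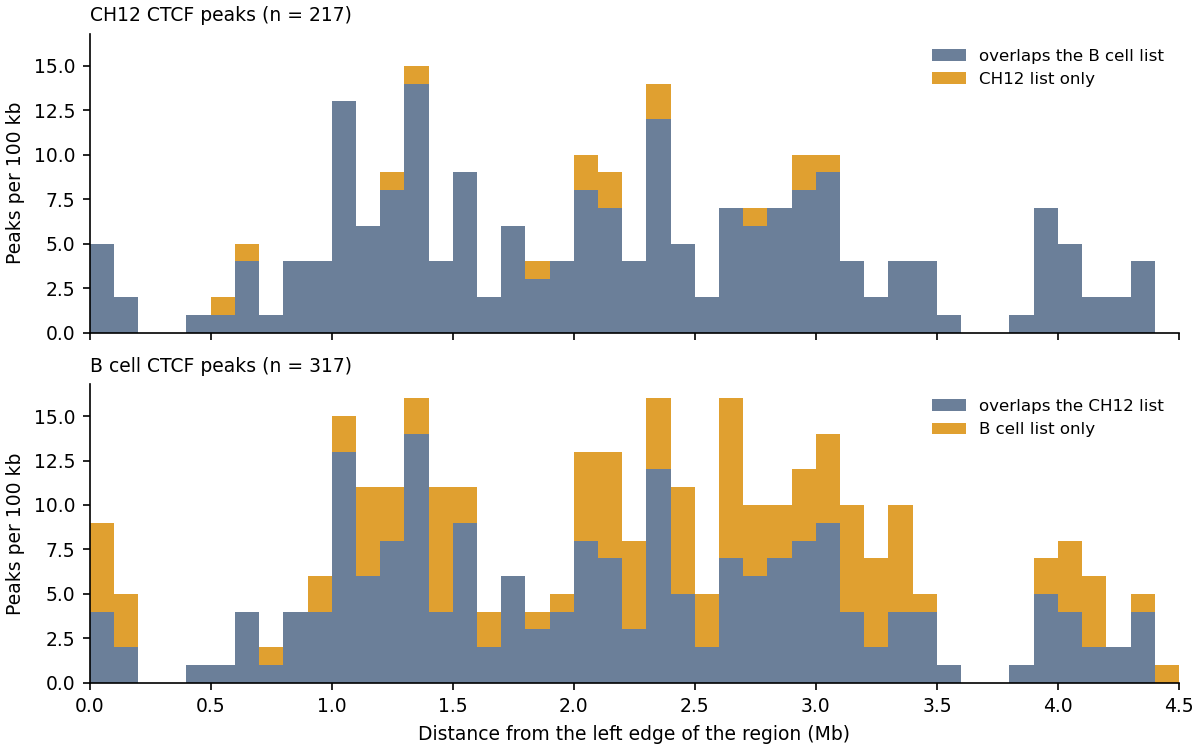
CTCF peaks per 100 kb along the region, by distance from its left edge, for CH12 cells (above, 217 peaks) and the B cell list (below, 317 peaks); blue bars are peaks that overlap the other list and orange bars those of one list only. Peaks crowd in the middle, and CH12-only peaks are few at 15 while B cell-only peaks number 120.

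Nearly all CH12 sites of the region were also in the B cell list. The 2 lists are of unequal length, so the overlap is given as a share of each. Of 217 CH12 peaks, 202 overlapped a B cell peak by at least 1 bp, 93.1% (88.9 to 96.1), against 89.5% of all CH12 peaks. Of 317 B cell peaks, 197 overlapped a CH12 peak, 62.1% (56.6 to 67.5), against 58.5% over the genome. Both intervals included their background, so neither share was distinguishable from that of its whole list. The shared peaks were the higher ones. CH12 peaks in both lists had a median score of 509 and those in the CH12 list only one of 127, near the 465 and 141 over the genome. B cell peaks in both lists had a median fold of 7.46 and those in the B cell list only one of 4.86, near the 7.66 and 4.62 over the genome.

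The highest shared CH12 sites all lay near the middle of the region: 35048621-35049703 scored 2891, 35332393-35333185 scored 2876 and 35438264-35439918 scored 2649. Each overlapped an anchor of a loop found in both genotypes. The CH12-only peaks scored far lower. The highest of them, 34818729-34819263, scored 472, just above the 470 that was the median of the region, and the next, 35900835-35901293 and 35162892-35163495, scored 207 and 206. Among B cell peaks, the top shared sites lay outside the dense core from 34 to 36.5 Mb: 36922575-36924777 at a fold of 17.8, 36862955-36863463 at 17.5 and 33081278-33082023 at 15.7. Some B cell-only peaks were also high in their list: 36380843-36381351 had a fold of 12.6, 34314090-34314542 one of 11.1 and 35645161-35645679 one of 11.0. None of these 3 lay at a loop anchor.

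Sites without a counterpart in the other cell source were seldom loop anchors, here as over the genome. Of the CH12 peaks of the region, 107 lay at an anchor of either ChIA-PET list, 49.3%, against 43.6% over the genome. Wild-type anchors held 87 of them, 40.1% (33.5 to 46.9, background 35.2%), and mutant anchors 89, 41.0% (34.4 to 47.9, background 32.5%). Only the mutant interval of these 2 left out its background. Among CH12 peaks also in the B cell list, 106 of 202 lay at an anchor, 52.5% against 47.7% over the genome. Among CH12-only peaks 1 of 15 did, 6.67% against 9.20%. That single peak is 34818729-34819263, the highest-scoring CH12-only site, and it was an anchor in both genotypes. Of the B cell peaks 108 lay at an anchor, 34.1% (28.9 to 39.6, background 28.8%). They were 102 of the 197 shared and 6 of the 120 B cell-only ones, 51.8% and 5.00%, where the genome had 47.5% and 2.44%. Both libraries are CH12 and their loops were mapped to CTCF peak calls, so anchorage is not independent of the CH12 peaks.

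Peak height and anchorage went together. CH12 peaks at or above the median of their list lay at an anchor in 90 of 124 cases, 72.6%, against 66% of such peaks over the genome. Those below it did so in 17 of 93 cases, 18.3%, against 21.3%. For B cell peaks the counts were 81 of 163, 49.7% (background 45.9%), and 27 of 154, 17.5% (background 11.7%). By rank within the whole CH12 list, the median percentile was 73.2 for the 106 shared peaks at an anchor, 40.8 for the 96 shared peaks away from one and 12.4 for the 14 CH12-only peaks away from one. B cell peaks showed a smaller step, with medians of 65.3 for 102, 56.8 for 95 and 30.5 for 114 peaks of the same 3 kinds. The groups overlapped widely in both lists, and peak calling and loop calling share the CTCF pull-down, so this is a description.

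**Figure D2:**
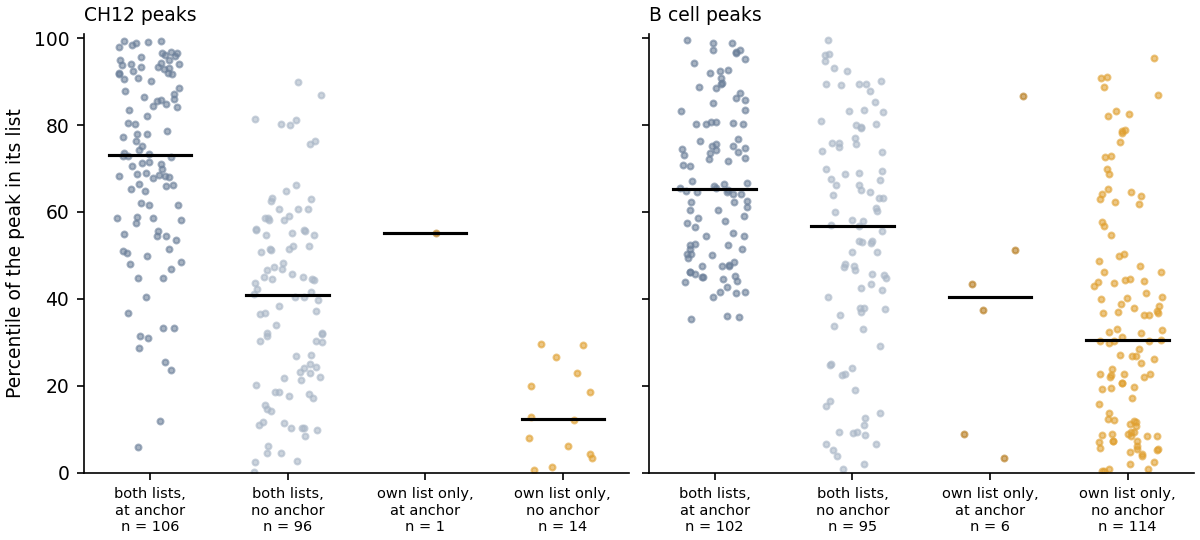
Percentile of each peak of the region within its own whole list (vertical axis, 0 to 100), for CH12 peaks (left) and B cell peaks (right), by overlap with the other list and by position at a loop anchor of either genotype; points are peaks, spread sideways, and bars are medians. CH12 peaks fall from a median of 73.2 at shared anchors to 12.4 for CH12-only peaks away from anchors, with wide overlap between the groups.

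Loops were crowded here, and so were the sites. The wild-type list had 17.3 loops per Mb, against 5.22 on chromosome 17 and 4.49 over the genome, and the mutant list 21.1, against 5.74 and 4.60. They were also short. Span, the distance between anchor midpoints, had a median of 55.9 kb in the wild type and 73.5 kb in the mutant, where the whole lists had 131 and 153 kb. Loops under 50 kb were 34 of 78 in the wild type, 43.6%, and 30 of 95 in the mutant, 31.6%, against 18.3% and 14.3% of all loops. The longest loop spanned 417 kb in the wild type and 380 kb inside the region in the mutant.

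Loops gathered in the windows with most sites. The windows from 34, 35 and 35.5 Mb held 19, 19 and 18 wild-type loops, and 24, 23 and 21 mutant loops. The window from 34.5 Mb had 25 CH12 peaks but only 4 wild-type and 6 mutant loops, and that from 36 Mb had 24 peaks with 5 and 7 loops. The window from 37 Mb had fewer peaks, 13, and more loops, 9 and 10. Peak number and loop number therefore did not rank the windows alike. Loops were assigned to windows by their midpoint, and none of either list fell in the window from 36.5 Mb.

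Mutant cells had more listed loops, and the difference lay within counting error. The ratio of mutant to wild-type loops was 1.22 in the region and 1.02 over the genome. The interval of the first, 0.893 to 1.67, treats loops as independent and the lists as separate, although 43 loops were in both. Tags summed to 463 in the wild type and 586 in the mutant, a ratio of 1.27, where that over all loops was 1.11. The difference between the median spans was 0.39 on the log2 scale, with an interval of -0.27 to 1.06, and 0.23 over the genome. The loop number did not differ detectably at this number of loops, and so wide an interval cannot show whether the span did.

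Of the 78 wild-type loops, 43 had both anchors overlapped by the anchors of 1 mutant loop and are called kept. That is 55.1% (43.4 to 66.4), against 46.8% of all wild-type loops. The other 35 were lost, 44.9% against 53.2%. Of the 95 mutant loops, the same 43 make 45.3% (35.0 to 55.8), against 45.7%, and 52 were new, 54.7% against 54.3%. Each interval included its background, so turnover here was not distinguishable from that of the whole lists. Lost and new refer to a list, since a loop with fewer than 3 tags is not in it. Loops at that limit of 3 tags were 8 of 43 kept, 17 of 35 lost and 22 of 52 new loops, 48.6% of the lost and 42.3% of the new. Over the genome they were 45.5% of the lost and 44.6% of the new. The median span was 63.3 kb for kept, 46.2 kb for lost and 87.5 kb for new loops, where the whole lists had 134, 127 and 173 kb.

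Lost loops here more often kept their ends than lost loops elsewhere. In 15 of the 35, 42.9% (26.3 to 60.6), both anchors were still anchors of other mutant loops, against 24% of all lost loops, and the interval, which treats loops that share anchors as independent, did not include that background. In 19 a single anchor was, and in 1 neither. The share of 42.9% was 1 of many set beside a background, with no adjustment for their number. Wild-type anchors as a whole were also in the mutant list more often here, 77.6% against 67.1%. Of the 52 new loops, 25 joined 2 anchors that the wild-type list already had, 48.1% against 42.1%, 22 used 1 such anchor and 5 none. A loop of the other list lay within 10 kb at both ends for 10 of the 35 lost loops, 28.6% against 21.2% of all lost loops, and for 8 of the 52 new ones, 15.4% against 18.9%.

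**Figure D3:**
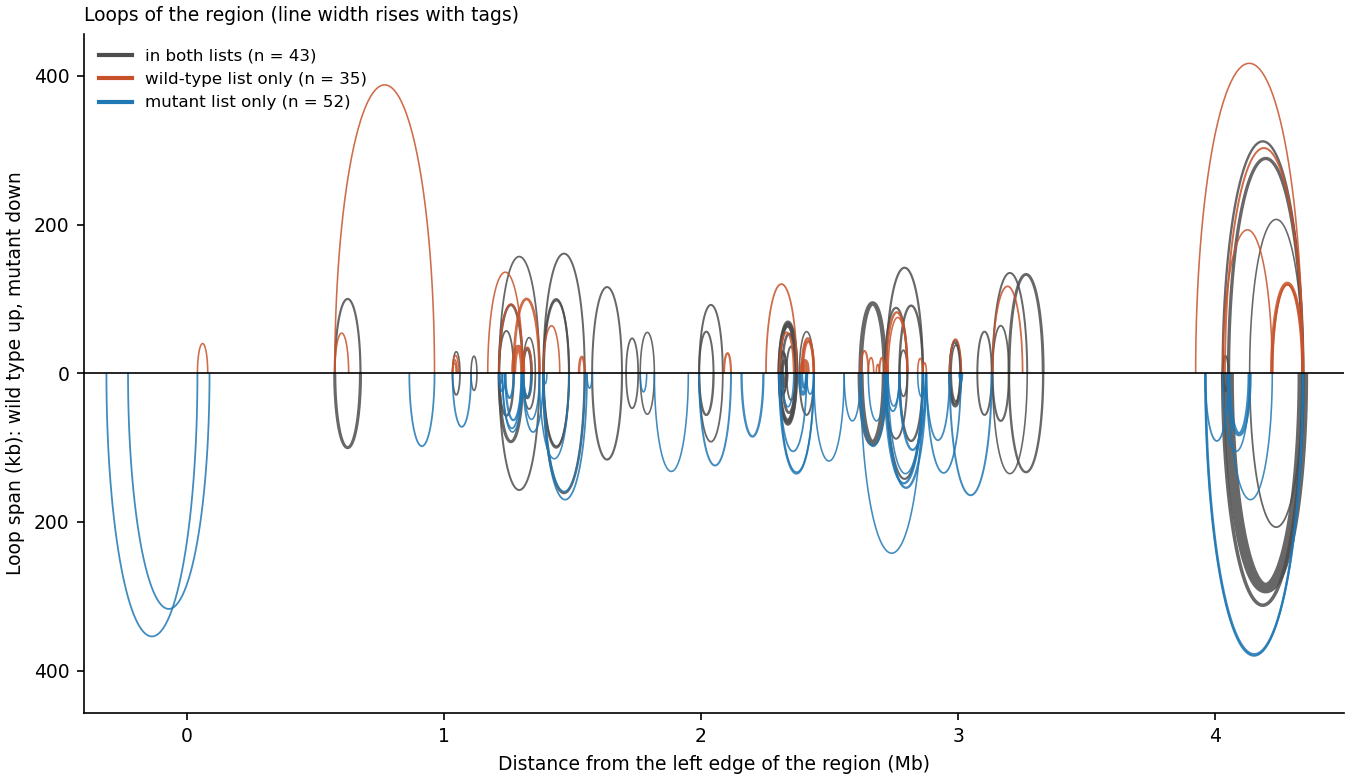
Loops of the region by distance from its left edge (horizontal axis), drawn as arcs whose height is the span in kb, wild type upward and mutant downward; line width rises with tags, grey loops are in both lists (43), red ones in the wild-type list only (35) and blue ones in the mutant list only (52). Blue arcs in the middle cross places that no wild-type arc crosses, and a red arc toward the left crosses a place that no mutant arc crosses. The widest grey arc at the right is the 289 kb loop with 12 wild-type and 51 mutant tags.

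The kept loop with most tags stood at the right end. It joined 37050351-37052693 with 37340123-37341319 over 289 kb and had 12 tags in the wild type and 51 in the mutant. Relative to the tags of all kept loops of the genome, 45501 and 52481, it was 1.88 higher in the mutant on the log2 scale (0.96 to 2.93), with an adjusted p of 0.00177 in a two-sided exact binomial test with Benjamini-Hochberg adjustment over all 5400 kept loops. It was the only kept loop of the region called, 1 of 43 or 2.33%, where 1.52% of all kept loops were called, 0.593% with more tags in the mutant and 0.926% with more in the wild type. At an unadjusted p under 0.05 it was again 1 of 43, against 9.02% of all. The test compares 2 libraries, not the genotypes.

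None of the other kept loops passed the test, and at their low tag numbers the interval of each reached past a 2-fold difference. The loop from 35620593-35622293 to 35714080-35716280, 93.7 kb, had 18 wild-type and 27 mutant tags, and that from 35314693-35316345 to 35332264-35333383, 17.3 kb, had 10 and 16. The loop from 35302835-35304419 to 35368527-35369749, 65.5 kb, had 11 and 9, and that from 37028943-37030025 to 37340123-37341319, 311 kb, had 7 and 13. These 4, the kept loops with most tags after the first, each had an adjusted p of 1 in the exact binomial test. Over all 43 kept loops, 262 wild-type tags stood against 347 mutant tags, with more tags in the mutant for 25 loops, fewer for 11 and equal numbers for 7. That is 58.1%, 25.6% and 16.3%, against 51.9%, 33.8% and 14.3% of all kept loops. After scaling to the tags of all kept loops, 23 were higher and 20 lower in the mutant. The scaled differences ran from -1.05 to 1.88 on the log2 scale with a median of 0.12, where all kept loops had -0.05.

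**Figure D4:**
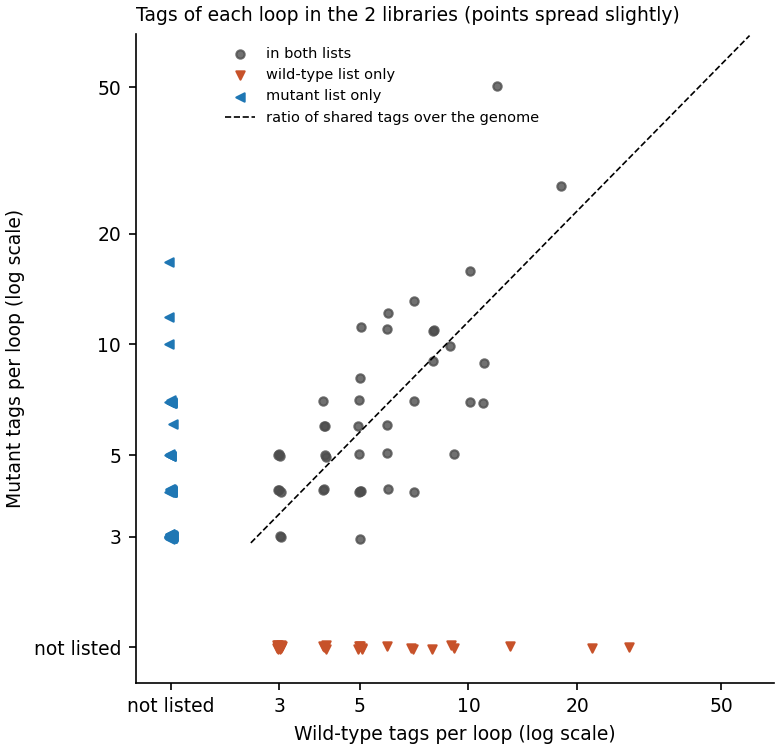
Tags of each loop in the wild-type library (horizontal, log scale) and the mutant library (vertical, log scale); grey points are the 43 kept loops, red and blue triangles the 35 lost and 52 new ones at the "not listed" position of the other axis, and the dashed line is the ratio of shared tags over the genome. One kept loop, at 12 and 51 tags, lies far above the line, and the lost loops reach 28 tags while the new ones reach 17.

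A pair of short loops with many wild-type tags were missing from the mutant list. The first joined 35394481-35396785 with 35410268-35412460 over 15.7 kb and had 28 tags, the most of any wild-type loop of the region. Its left anchor, at 35.396 Mb, was not an anchor of any mutant loop, although its CH12 peak stood at percentile 98.4 of the wild-type list. The same anchor lost its other loop, of 43.4 kb and 9 tags, to the 35.439 Mb anchor. In the mutant, the 35.411 Mb anchor was joined instead to 2 sites a little further left: to 35382566-35383772 by 12 tags and to 35391056-35392394 by 10 tags. Both sites were wild-type anchors too, and neither was joined to the 35.411 Mb anchor there. The loop of 10 tags lay within 10 kb of the lost loop of 28 tags at both ends. With anchors allowed to lie within 10 kb, that lost loop therefore counts as kept.

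The second lost loop joined 34271804-34272983 with 34306022-34307291 over 34.3 kb by 22 tags. Both of its anchors were in the mutant list. At the 34.272 Mb anchor, whose CH12 peak stood at percentile 98.8, the mutant list held partners on the left only. The wild type had 1 on the left and 2 on the right with 35 tags in all. The mutant had 2 on the left and none on the right with 14 tags. The lost right partners of this anchor were the 34.307 Mb anchor and 34371773-34372651, the latter joined by 9 wild-type tags. Its left loop to 34214175-34215215 was kept, at 4 wild-type and 7 mutant tags, and a new loop to 34237993-34239233 had 7. The 34.307 Mb anchor kept its loop to the 34.215 Mb anchor, at 8 and 11 tags. When each missing loop was given 2 tags, as if left out for too few tags, these 2 lost loops were called in the exact binomial test over 17954 loops. Their mutant count was assumed, and both were named for many wild-type tags and absence from the mutant list. The outcome is therefore no independent support for a difference. A loop left out for lack of a peak call could have had more tags, and the 35.396 Mb anchor was absent from the mutant list altogether. The assumed 2 tags are thus no bound.

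At the right end, the anchor 37340123-37341319 gathered loops from the left only in both genotypes. It had 7 partners and 48 tags in the wild type and 5 partners and 80 tags in the mutant. The lost loop to 37220052-37220717, 120 kb, had 13 wild-type tags, and the loop from the neighbouring 37.222 Mb anchor, lost as well, had 5. In the mutant, 36960211-36961768 and 36962175-36963766, which were not wild-type anchors, were joined to it by 5 and 7 tags. The 37.052 Mb anchor had 1 partner on each side with 18 tags in the wild type, and 2 on the left and 3 on the right with 87 tags in the mutant. Its new loop to 37133581-37134635, 82.6 kb and 17 tags, had more tags than any other new loop of the region. After it came those with 12 and 10 tags at the 35.411 Mb anchor, and then 6 new loops of 7 tags each. These were the loops of the 34.239 Mb and 36.963 Mb anchors above, those from 35.715 to 35.863, 35.721 to 35.875 and 35.772 to 35.875 Mb, and one of 85 kb between 35157720-35158887 and 35242634-35244044. Neither end of the last was a wild-type anchor.

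Each list had 85 anchors in the region, and 66 were in both, 77.6% (67.3 to 86.0). Over the genome, 67.1% of wild-type and 72.9% of mutant anchors were shared, so the region lay just above the first and not distinguishably above the second. The 19 anchors in the wild-type list only and the 19 in the mutant list only had a single partner in 17 and 10 cases, 89.5% and 52.6%, where 78.2% and 75.5% of the anchors found in 1 list did so over the genome. Nearly all anchors held a CH12 peak, 83 of 85 in the wild type and 84 of 85 in the mutant (background 98.4% of both lists), and 84 of 85 in each held a B cell peak (background 98.2%). The mean number of partners was 1.84 in the wild type and 2.21 in the mutant, where the whole lists had 1.70 and 1.89.

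Loop extrusion stalled at a directional motif would join an anchor to partners on 1 side, so the sides were counted. Of 21 wild-type anchors with 3 or more partners, 15 had all of them on 1 side, 71.4% (background 66.4%). Of 27 such mutant anchors, 13 did, 48.1% (28.7 to 68.1; background 57.5%). Both intervals included their background. Among all 85 anchors of each list, 12 wild-type and 20 mutant anchors had partners on both sides, 14.1% and 23.5%, against 9.57% and 14.2% over the genome. The share was thus higher in the mutant list both here and over the genome. The anchor 35305249-35306505 kept a one-sided fan, with 5 partners on the right and 30 tags in the wild type and 6 on the right and 32 tags in the mutant. The anchor 35714080-35716280 had 2 partners on each side in both genotypes, with 33 and 42 tags. Of 31 anchors with at least 2 partners in both lists, 21 kept their side class, 67.7% (background 76.4%): 8 left, 8 right and 5 both. In 6 a one-sided anchor became two-sided (background 15.8%), in 4 the reverse held (background 7.8%), and none went to the opposite side (background 0.0845%). An anchor with a kept loop has that side in both lists and cannot go to the opposite one.

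Loops that share anchors form chains. The 78 wild-type loops fell into 18 chains, 7 of them single loops. The largest had 14 loops among 13 anchors and 77 tags, between 35620593 and 35877307. The next had 12 loops (35252302 to 35374044, 86 tags), 10 loops (34170744 to 34372651, 69 tags) and 9 loops (36922963 to 37341319, 57 tags). Of all wild-type chains of the genome, 3.12% had 14 loops or more, and the largest had 38. Chains of 10 or more loops held 46.2% of the wild-type loops in the region's chains, against 29.5% over the genome.

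In the mutant the largest chains were larger. There were 14 chains, 4 of them single, with 99 loops including those that reach beyond the region. The largest ran over 573 kb from 35302835 to 35875909, with 35 loops among 23 anchors and 219 tags, of which 16 loops were kept and 19 new. Of all mutant chains, 0.616% were as large, and the largest had 79 loops. The second had 23 loops among 19 anchors and 117 tags over 479 kb, from 34214175 to 34693211, and the third 10 loops and 119 tags, from 36960211 to 37341319. Chains of 10 or more loops held 68.7% of the loops, against 48.2% over the genome, so the rise over the wild type was shared with the whole lists. The median chain had 3 loops in the mutant and 3.5 in the wild type. At 4 tags or more, the mutant had 15 chains and the wild type 14, and the largest had 15 loops in the mutant instead of 35 and 11 in the wild type instead of 14. The largest wild-type chain was then another one, from 35.252 to 35.374 Mb. Of all chains of the genome at that limit, 1.88% in the mutant and 1.83% in the wild type were as large or larger.

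The large mutant chains joined wild-type chains end to end through thin links. The chain of 35 loops took in anchors of 3 wild-type chains, of 12, 4 and 14 loops. The first 2 were linked by new loops from the 35.304 Mb anchor to the 35.439 Mb anchor (5 tags) and from the 35.306 Mb anchor to those at 35.411 Mb (4 tags) and 35.439 Mb (3 tags). The last was reached through 35554770-35559022, an anchor of the mutant list only, by loops of 3 tags on either side, from 35.439 and to 35.621 Mb. The chain of 23 loops took in wild-type chains of 10, 5 and 1 loops. New loops from 34.308 to 34.387 Mb (4 tags) and from 34.372 to 34.487 Mb (3 tags) linked the first pair, and the mutant-only anchor 34556924-34557437 linked the last by loops of 4 and 3 tags. All of these links stood within 2 tags of the limit for listing, and whether the wild type had such contacts below that limit cannot be told from the lists.

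The longest run of loops laid end to end, each starting at the anchor where the last one ended, had more steps and tags in the mutant list. Some steps of both runs stood at the limit of 3 tags. The wild type had 4 steps from 35.682 to 35.803 Mb with 15 tags, and all 4 of these loops were lost. The mutant had 6 steps from 35.383 to 35.863 Mb with 55 tags, in order 12, 3, 3, 3, 27 and 7, of which only the fifth, the loop from 35.621 to 35.715 Mb, was kept.

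Large stretches of the region were spanned by no listed loop, 47.8% of it in 19 stretches in the wild type and 39.6% in 13 stretches in the mutant. The longest ran from 36.331 to 36.923 Mb in the wild type, 592 kb with 10 CH12 and 17 B cell peaks, and to 36.960 Mb in the mutant, 629 kb with 12 and 20 peaks. The second longest ran from 33.082 Mb to 33.576 Mb in the wild type, 494 kb, and covered 487 kb in the mutant. Most of both stretches thus had no listed loop across them in either genotype. A stretch in the middle differed: from 35.440 to 35.621 Mb, 181 kb with 4 CH12 and 11 B cell peaks, no wild-type loop passed, while the mutant-only anchor at 35.557 Mb joined both of its sides by 3 tags each. The reverse held from 33.677 to 33.866 Mb, 189 kb with 3 CH12 and 4 B cell peaks. No mutant loop passed there, while a lost wild-type loop of 3 tags, from 33.576 to 33.964 Mb, did. These loops all stood at the limit of 3 tags for listing. Most loops lay across 35.315 Mb, 11 in the wild type and 13 in the mutant.

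**Figure D5:**
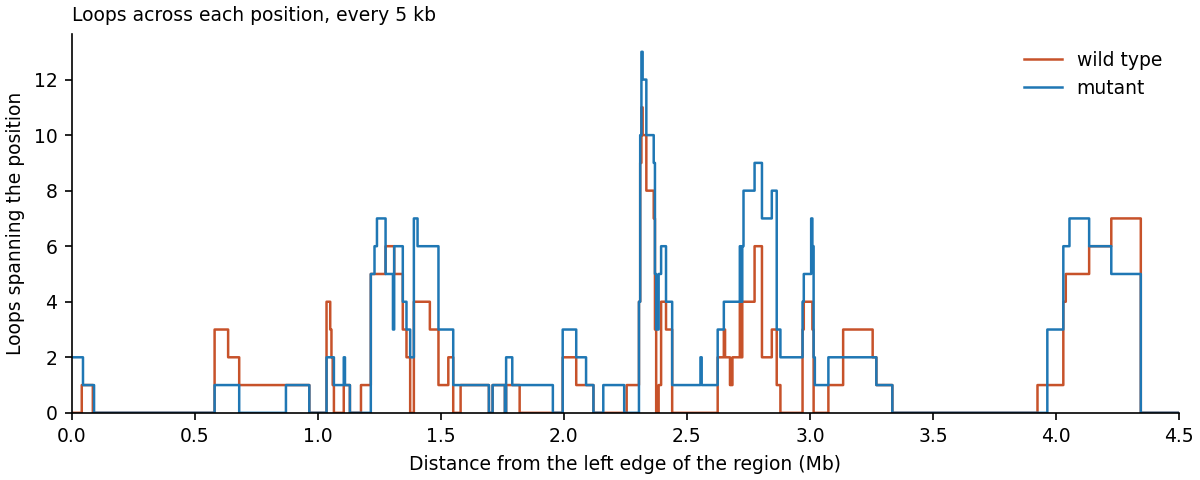
Number of loops that span each position, taken every 5 kb and plotted by distance from the left edge of the region (Mb), for the wild type (red) and the mutant (blue). Both lines peak at the same place, 35.315 Mb of mm9, at 11 and 13 loops, and lie at 0 over a long stretch toward each end. Just right of the peak, only the mutant line stays above 0 over 181 kb, through loops of 3 tags each. From 33.677 to 33.866 Mb, 189 kb, only the wild-type line does so, through a loop of 3 tags.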

How the data were processed

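The members and lists were chosen with earlier results of these data known. The ChIA-PET lists, 1 library of CH12 cells per genotype, hold counts of supporting tags per interaction, deposited by the authors. Per the file headers, these interactions refer to peak calls of CTCF that contain core motifs, have at least 3 tags and span up to 2 Mb. The CH12 peak list deposited by the authors gives 1 score per peak. The deposited B cell list gives a score, the q-value as −log10 and the fold enrichment of each peak over background. The sources used here name neither the pooling of libraries for peak calling nor the interaction caller. The submitters' processing notes list mm9 as the build and, with no role for any of them, BWA, bedtools 2.25, SAMtools 1.2, Bowtie 1.1.1 and CASAVA 1.8.2.

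Peaks, anchors and loops matched when they overlapped by at least 1 bp, at both anchors for loops. Tags of kept loops were compared by an exact binomial test, two-sided, at the ratio of kept tags of the genome, adjusted (Benjamini-Hochberg) over all kept loops at 0.05. Shares have exact (Clopper-Pearson) 95% intervals. The interval of the span difference joins the opposite ends of the 95% order-statistic intervals of the 2 medians. Backgrounds are shares over the whole lists. Positions are 1-based, and an anchor given as 1 position in Mb is named by its midpoint. The text names the 5 loops with most tags in each class (ties by position), the 3 highest peaks of each class and the 3 anchors with most partners in each list (ties by tags). Links between chains, and other loops or anchors, were named after their values were seen. Alternatives were other overlap rules, higher peaks, 4 tags or more, anchors within 10 kb, both anchors inside, anchors within 5 kb merged, another tag ratio and 2 tags for missing loops. Motif orientation, sequences and genes at anchors were not analysed here, since no mm9 sequence or annotation was used. The scripts ran under Python 3.11.15 (scipy 1.17.1, numpy 2.4.6, pandas 2.3.3, matplotlib 3.10.9).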

Additional observations from a re-analysis of the deposited data

How the results depend on the processing

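Of 24 recomputed values, 15 stayed within their interval or within 1.5 times the main count, 9 moved and 0 reversed. When centres had to lie within 100 bp, 76.0% of CH12 peaks were in the B cell list and 52.1% of B cell peaks in the CH12 list; with only peaks at or above the median of their list the shares were 99.2% and 82.2%. The densities then fell to 27.6 CH12 and 36.2 B cell peaks per Mb, lower by construction. With anchors allowed to lie within 10 kb, 67.9% of wild-type loops were kept. That rule took in 28.6% of the lost loops here, against 21.2% of all lost loops. The peak shares under the other rules were not computed over the whole lists. With missing loops given 2 tags, 3 loops of the region were called instead of 1; a loop missing for want of a peak call could have had more than 2 tags. At 4 tags or more the largest mutant chain had 15 loops and ended at 35.440 Mb, since the links of 3 tags through 35.557 Mb dropped out while those of 4 and 5 tags were kept; the 47 loops with anchors within 5 kb merged lay within 1.5 times the main count. No paired analysis was possible because each genotype had 1 ChIA-PET library and the peak lists hold no calls per replicate. Loop counts under 100 per list leave intervals too wide for moderate differences between the genotypes to be seen.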
